A study of Homo sapiens with 40 samples.

Results

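Cadherins and desmosome genes were followed across 2 squamous carcinoma cell lines grown as spheroids in collagen, with and without epidermal growth factor (EGF) and 2 inhibitors of its signalling. The genes were chosen by name, as the rows of the count table with the symbols CDH1, CDH3, DSC2, DSC3, DSG2, DSG3, DSP, JUP, PKP1 and PKP3. Of these 10 genes 9 were present among the 12655 genes of the table, and PKP1 was not analysed here. All 9 passed the filter on low counts in both lines. By its title, the study concerns invasion through EGF receptor signalling in head and neck tumours and how cetuximab acts on it.

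Spheroids of Kyse30, a line from an oesophageal squamous cell carcinoma, and of FaDu, a line from a hypopharyngeal tumour, carried the photoconvertible fluorescent protein Dendra2 and are labelled wildtype. They were kept for 72 h in serum-free medium with type I collagen at 1.7 mg/mL. Each line had 5 groups of 4 libraries. The first was invasive cells from spheroids given 9 nM EGF. The second was spheroids given 9 nM EGF with 10 µg/mL the antibody cetuximab, which blocks EGF's receptor. The third was spheroids given 9 nM EGF with 100 nM AZD6244, an inhibitor of the kinase MEK. The fourth was non-invasive cells from spheroids given 9 nM EGF alone, and the fifth was spheroids in serum-free medium without EGF. Both EGF-only groups are called photoconverted in their titles, and a separate label on cell selection gives invasive cells for both, so the division between invasive and non-invasive cells rests on titles and sample descriptions. That label calls the cetuximab, MEK inhibitor and serum-free samples unselected. A comparison of either EGF-only group with these therefore differs in cell selection as well as in treatment, and the 2 cannot be told apart. Each line is a single cell line, separate cultures for the replicates are not stated in any label. The spread behind each p-value is that between these libraries and may be technical.

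Classical cadherins are calcium-dependent adhesion proteins of adherens junctions, held to actin through catenins. Desmosomal cadherins, the desmogleins (DSG) and desmocollins (DSC), bind their partners on the next cell and are tied to keratin filaments through a plaque of plakoglobin (JUP), plakophilins (PKP) and desmoplakin (DSP). In stratified squamous epithelium, DSC3 and DSG3 are known from the basal layers and DSC2 and DSG2 are more widely expressed.

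Reads were tags from the 3′ ends of polyadenylated RNA, and levels were therefore not scaled by length. Levels are CPM, counts relative to the library total, scaled by TMM factors within a line, and errors of levels are SDs over 4 libraries. Changes are log2 fold changes with standard errors (SE) from edgeR's quasi-likelihood test, with p-values adjusted by the Benjamini-Hochberg method over all genes tested. A gene is called, or said to have risen or fallen, where its adjusted p was under 0.05. In bulk RNA of this kind, fewer cells of a type and less RNA per cell cannot be told apart. Library totals ran from 2538447 to 4534339 counts in Kyse30, apart from the first invasive replicate with 463124, and from 2312126 to 5669262 in FaDu. In that shallow library DSC3 and DSG3 had 0 counts, where the floor of 3 counts is 6.48 CPM. Calls of Kyse30 members that change without it are given, and those of other listed genes only in part. Of the squamous epithelial markers, 7 of 7 were present, with summed levels of 303 to 2285 CPM in Kyse30 and 3286 to 6345 CPM in FaDu libraries. Fibroblast, endothelial and leukocyte lists had 1 row each, COL1A1, CDH5 and CD68, with none above 53.7 CPM in any library, and the other markers of these lists were not analysed here. CDH5 was at 0 to 2.80 CPM in invasive and 16.4 to 34.6 CPM in serum-free libraries of Kyse30, and at 0 CPM in invasive and 2.27 to 5.29 CPM in serum-free libraries of FaDu. CD68 ran from 6.95 to 10.9 CPM in non-invasive and from 0 to 1.70 CPM in serum-free libraries of FaDu. COL1A1 had 3.36 to 9.76 CPM in invasive and 16.9 to 22.4 CPM in serum-free libraries of that line. The mitochondrial share of counts averaged 15.3% in FaDu and 22.0% in Kyse30 serum-free libraries, above every other group of the same line. The part of these differences in the results was not tested. KRT5, a basal keratin gene, had at most 15.0 CPM in any Kyse30 library and averaged 762 ± 86.2 CPM in FaDu serum-free spheroids.

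Without EGF the lines already differed in desmosome RNA. In serum-free spheroids DSP had 217 ± 13.7 CPM in Kyse30 and 2200.2 ± 67.1 CPM in FaDu on a scaling common to both lines, a log2 difference of -3.34 ± 0.20 (adjusted p = 2.72e-17). DSC3 had 25.5 ± 0.951 CPM in Kyse30 and 118 ± 5.85 CPM in FaDu (-2.21 ± 0.34, adjusted p = 1.01e-06), and DSC2 had 51.1 ± 16.7 and 129 ± 7.76 CPM (-1.33 ± 0.20, adjusted p = 5.66e-07). CDH3 and DSG3 were also lower in Kyse30, with log2 values of -0.72 ± 0.17 and -1.43 ± 0.58, and JUP was higher, by 0.65 ± 0.20. That made 1 member higher and 5 lower in Kyse30 of 9, where 21.5% of all genes were higher and 22% lower. CDH1 had 228 ± 36.7 CPM in Kyse30 and 194 ± 18.3 CPM in FaDu, DSG2 310.2 ± 50.5 and 341 ± 17.0 CPM and PKP3 121 ± 10.8 and 112 ± 11.8 CPM, with no call. Among the members, DSP was the most abundant in FaDu and JUP in Kyse30, by a mean over 4 serum-free libraries. The call of DSG3, with an adjusted p of 0.0427, was lost when any 1 of the 8 serum-free libraries other than the third Kyse30 replicate was left out.

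**Figure D1:**
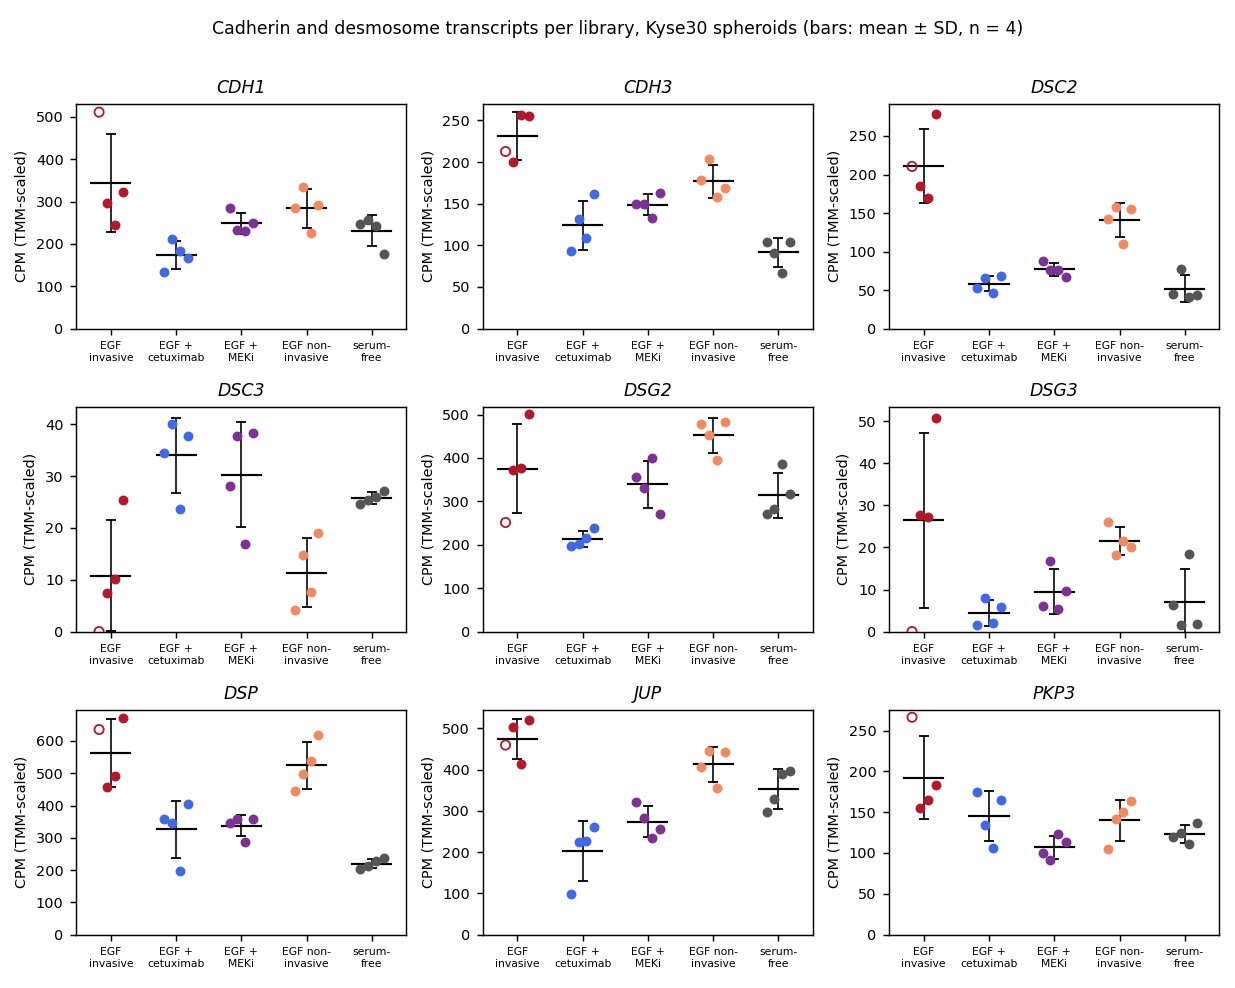
Levels of the 9 members in each Kyse30 library, in TMM-scaled CPM on linear axes from 0. Points are libraries, bars are means ± SD of 4, and the open circle is the shallow library. DSC2 runs between 170 and 279 CPM in invasive cells and between 41.3 and 77.4 CPM in serum-free spheroids.

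**Figure D2:**
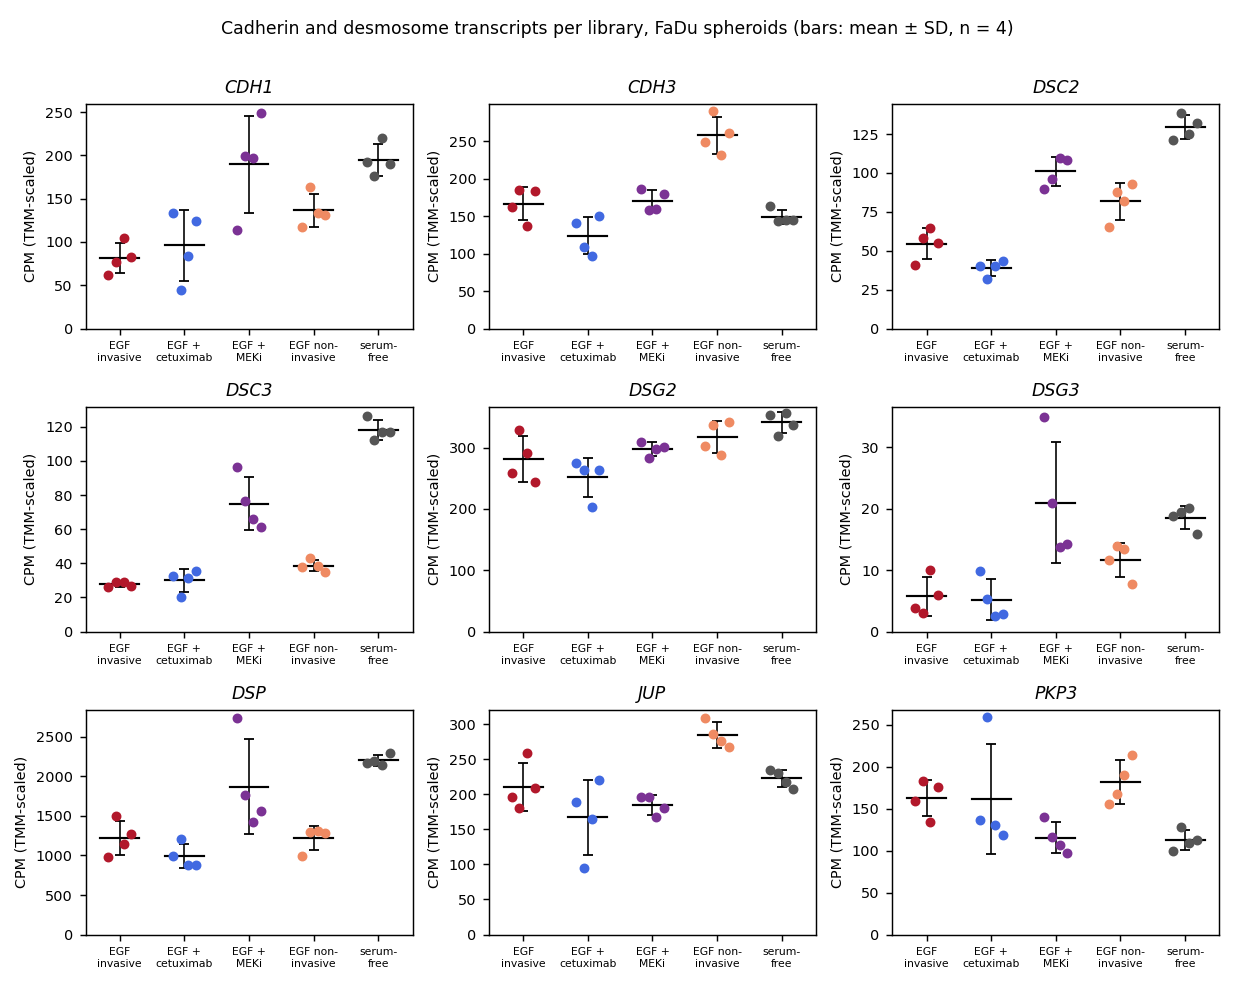
The same plot for FaDu, with each point a library and bars the mean ± SD of 4. DSC3 lies between 112 and 126 CPM in serum-free spheroids and between 25.9 and 29.3 CPM in invasive cells.

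The counts of members called are set here beside those of all genes. In FaDu, invasive against non-invasive cells had 0 members higher and 2 lower of 9, where 0.659% of all genes were higher and 2.34% lower. In Kyse30 the same comparison had 0 higher and 0 lower by edgeR, where 0.0668% and 0.342% of all genes were called, 0.409% in either direction. At an unadjusted p under 0.05 there was 1, DSC2, and DESeq2 and limma-voom also called 0. The members' median log2 change was 0.26 in Kyse30 and -0.48 in FaDu, beside -0.15 and -0.01 over all genes. Non-invasive EGF-treated cells against serum-free spheroids had 3 members higher and 0 lower in Kyse30, where 8.1% of all genes were higher and 4.76% lower (12.9% in either direction), and 2 higher and 3 lower in FaDu, where 25.3% and 24.7% were called. The FaDu share is near that of all genes, of which 50% were called in either direction. Invasive cells against serum-free spheroids had 5 higher and 0 lower in Kyse30, with 12% and 14.6% of all genes (26.6% in either direction), and 1 higher and 6 lower in FaDu, with 27.8% and 29.5%, or 57.3% in either direction. In Kyse30 the share of members higher, and in FaDu the share lower, was above that of all genes. These comparisons share non-invasive or serum-free libraries and are not independent of each other.

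Cetuximab against non-invasive cells had 0 members higher and 4 lower in Kyse30, where 1.85% of all genes were higher and 3.08% lower (4.93% in either direction), and 0 higher and 3 lower in FaDu, where 3.64% and 4.93% were called (8.56%). The MEK inhibitor against non-invasive cells had 0 higher and 1 lower in Kyse30, with 1.65% and 2.91% of all genes (4.56% in either direction), and 2 higher and 3 lower in FaDu, with 14.8% and 14.9% (29.7%). Against serum-free spheroids, cetuximab had 0 higher and 1 lower in Kyse30, with 1.88% and 1.25% (3.13%), and 1 higher and 7 lower in FaDu, with 22.7% and 21.1% (43.8%). The MEK inhibitor had 1 higher and 0 lower in Kyse30, with 2.29% and 1.61% (3.9%), and 0 higher and 1 lower in FaDu, with 10.8% and 8.63% (19.4%). So in FaDu cetuximab spheroids differed from serum-free ones in 8 of 9 members, above the share of all genes, and MEK inhibitor spheroids in 1 of 9, near it. The median log2 change of the members between cetuximab and non-invasive cells was -0.71 in Kyse30 and -0.50 in FaDu, beside -0.03 and 0.05 over all genes. Between non-invasive cells and serum-free spheroids it was 0.53 in Kyse30 and -0.51 in FaDu, beside 0.03 and -0.02. The shallow Kyse30 library moved several of these counts. Without it, non-invasive cells against serum-free spheroids had 5 members higher and 1 lower (15.9% and 12% of all genes). Against non-invasive cells, cetuximab then had 1 higher and 7 lower (7.37% and 9.76%) and the MEK inhibitor 1 higher and 3 lower (5.84% and 8.56%). Against serum-free spheroids, invasive cells then had 6 higher and 0 lower (19.6% and 18.9%). There cetuximab had 1 higher and 2 lower (8.72% and 6.42%) and the MEK inhibitor 2 higher and 0 lower (8.52% and 6.9%).

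CDH1 and CDH3 encode E-cadherin and P-cadherin, the classical cadherins of epithelial and basal epithelial cells. In RefSeq on GRCh38.p14 they lie side by side on the plus strand of chromosome 16, CDH3 at chr16:68645310-68733771 and CDH1 at chr16:68737292-68835537, with 3520 bases between them. CDH3 had 213, 199.8, 256 and 255 CPM in Kyse30 invasive cells, 93.3, 131, 109 and 162 CPM with cetuximab, 149, 150.0, 133 and 163 CPM under the MEK inhibitor, 178, 204, 158 and 168 CPM in non-invasive cells and 104, 91.2, 66.8 and 104 CPM in serum-free spheroids. All EGF-only libraries of Kyse30 lay above all serum-free ones. CDH3 in FaDu had 162, 185, 137 and 183 CPM in invasive cells, 140.4, 109, 97.4 and 149.8 CPM with cetuximab, 186, 158, 159 and 179.5 CPM under the MEK inhibitor, 249, 290.0, 232 and 261 CPM in non-invasive cells and 163, 143, 145 and 145 CPM in serum-free spheroids. The 4 non-invasive FaDu libraries were higher than each of the other 16.

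CDH3 rose in non-invasive cells over serum-free spheroids in both lines, by 0.95 ± 0.20 (adjusted p = 0.00223) in Kyse30 and 0.79 ± 0.13 (adjusted p = 2.09e-05) in FaDu, and was the only member to rise in both. The difference between the lines was 0.17 ± 0.24 on the log2 scale and was not called. Within EGF-treated FaDu spheroids, CDH3 was lower in invasive than in non-invasive cells (-0.63 ± 0.13, adjusted p = 0.0066), while in Kyse30 the value was 0.39 ± 0.20 with no call. The difference between the lines there was 1.00 ± 0.24 (adjusted p = 0.0659), and it was called, at 1.04 ± 0.22, without the shallow library. CDH3 was lower with both inhibitors than in non-invasive FaDu cells, at -1.05 ± 0.13 with cetuximab and -0.60 ± 0.13 with the MEK inhibitor (adjusted p = 5.51e-06 and 0.00125). In Kyse30 these values were -0.52 ± 0.20 and -0.25 ± 0.20, neither called with all libraries, and cetuximab was called without the shallow one (-0.51 ± 0.17). Against serum-free spheroids the Kyse30 MEK inhibitor group was higher (0.70 ± 0.20, adjusted p = 0.0483), a call lost when any 1 of its 8 libraries, or the 2 non-invasive libraries richest in MALAT1, were left out. CDH3-AS1, an antisense RNA at this locus, had at most 7.98 CPM in any library. The strand setting of the counting is not given in the sources used here, so its reads and those of CDH3 cannot be told apart.

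CDH1 in FaDu had 62.2, 76.8, 105 and 82.3 CPM in invasive cells, 133, 44.1, 83.6 and 124 CPM with cetuximab, 114, 199, 197 and 249 CPM under the MEK inhibitor, 118, 163, 134 and 131 CPM in non-invasive cells and 193, 176, 219.6 and 189.8 CPM in serum-free spheroids. Each invasive library was below each non-invasive and serum-free one. CDH1 fell in invasive cells (-1.26 ± 0.26, adjusted p = 0.000388) and with cetuximab (-1.01 ± 0.26, adjusted p = 0.00363) relative to serum-free spheroids. Between invasive and non-invasive cells the change was -0.75 ± 0.26 with an adjusted p of 0.142. The second cetuximab replicate was the lowest FaDu library. This library and the first MEK inhibitor replicate had the lowest correlation with their own groups in FaDu. Without both, an alternative chosen after seeing the data, the CDH1 difference between invasive and non-invasive cells was called. A fit of only the groups compared, with no library of these groups left out, also called CDH1 as lower in invasive cells. With the replicate number as a block CDH1 was not called there. In Kyse30 CDH1 had 245 to 511 CPM in invasive cells, with the shallow library at the top, 134 to 212 CPM with cetuximab, 229 to 284 CPM under the MEK inhibitor, 225 to 335 CPM in non-invasive cells and 176 to 257 CPM in serum-free spheroids. No Kyse30 comparison of CDH1 was called with all libraries, and without the shallow one cetuximab was lower than non-invasive cells (-0.71 ± 0.16). The lines then also differed in the CDH1 change between non-invasive cells and serum-free spheroids, by 0.81 ± 0.31.

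The ratio of CDH3 to CDH1 counts within a library, chosen after the values were seen and given with no test, had medians in FaDu of 2.32 in invasive cells, 1.19 with cetuximab, 0.803 with the MEK inhibitor, 1.88 in non-invasive cells and 0.788 in serum-free spheroids. In FaDu CDH3 counts thus exceeded CDH1 counts in all 8 EGF-only libraries and in none of the serum-free ones. They also did so in every FaDu cetuximab library (1.05 to 2.47) and in MEK inhibitor replicate 1 (1.63). The Kyse30 medians in the same order of groups were 0.733, 0.657, 0.612, 0.617 and 0.388.

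The 4 desmosomal cadherin genes lie in 2 neighbouring pairs on chromosome 18. DSC3 (chr18:30989365-31042742) and DSC2 (chr18:31058840-31102421) are on the minus strand with 16097 bases between them, and DSG3 (chr18:31447741-31478702) and DSG2 (chr18:31498177-31549008) are on the plus strand with 19474 bases between them. DSP lies at chr6:7541671-7586714 on the plus strand. The promoter windows of DSC2 and DSP are shown beside that of DSC3. In non-invasive cells against serum-free spheroids DSC2 and DSP changed in opposite directions in the 2 lines. DSC3's fitted change there was negative in both. DSG3, whose window is described but not shown, also had fitted changes in opposite directions, and its line difference was called. Each is the RefSeq sequence on GRCh38.p14 from 250 bases before to 50 bases after the annotated start, read 5′ to 3′ on the gene's strand. Capitals mark CACCTG or its reverse complement CAGGTG, an E-box form known as a binding sequence of the Snail and ZEB repressors of epithelial genes. The windows are chr18:31102372-31102671 on the minus strand for DSC2, chr18:31042693-31042992 on the minus strand for DSC3 and chr6:7541421-7541720 on the plus strand for DSP.
DSC2: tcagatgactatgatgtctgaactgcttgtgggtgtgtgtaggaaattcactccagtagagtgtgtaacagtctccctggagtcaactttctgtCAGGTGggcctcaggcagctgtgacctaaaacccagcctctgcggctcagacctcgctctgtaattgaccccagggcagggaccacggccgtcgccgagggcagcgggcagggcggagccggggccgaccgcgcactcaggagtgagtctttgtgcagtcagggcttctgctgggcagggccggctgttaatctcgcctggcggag
DSC3: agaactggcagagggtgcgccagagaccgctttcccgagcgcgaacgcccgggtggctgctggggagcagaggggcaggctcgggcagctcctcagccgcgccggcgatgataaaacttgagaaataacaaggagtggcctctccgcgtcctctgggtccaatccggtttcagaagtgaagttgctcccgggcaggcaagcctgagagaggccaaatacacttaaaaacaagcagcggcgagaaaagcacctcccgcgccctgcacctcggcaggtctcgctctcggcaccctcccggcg
DSP: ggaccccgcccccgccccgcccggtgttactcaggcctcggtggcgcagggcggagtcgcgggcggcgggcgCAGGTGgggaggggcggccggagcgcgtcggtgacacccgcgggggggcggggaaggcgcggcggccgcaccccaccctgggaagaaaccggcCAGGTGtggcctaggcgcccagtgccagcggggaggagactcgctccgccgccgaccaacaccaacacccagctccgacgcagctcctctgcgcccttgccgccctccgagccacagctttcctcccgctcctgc
DSC2 held 1 such E-box, at -156 from the start, DSP held 2, at -178 and -85, and DSC3 held none in these letters. A second annotated DSC2 window, at chr18:31101211-31101510, and the DSG3 window held none, and the DSG2 window held 2. Of JUP's 2 windows, 1 held 2 and the other none, and JUP's fitted change was positive in both lines with no call. Searched on both strands, CACCTG was present in 20.6% of 35116 promoter windows of the same length. The AP-1 letters TGANTCA (7.71% of windows) and the ETS letters CCGGAAG (10.3%) were not found in any member's window, and no matches of different motifs overlapped. CDH1, CDH3 and PKP3 had no window and were not searched. Binding of any factor was not measured, and a relation of these letters to the changes was not tested.

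DSC2 and DSC3 encode desmocollins 2 and 3. DSC2 had 210.4, 186, 169.7 and 279 CPM in Kyse30 invasive cells, 52.9, 65.0, 46.8 and 68.1 CPM with cetuximab, 87.9, 76.1, 76.1 and 67.5 CPM under the MEK inhibitor, 142, 158, 109.7 and 155 CPM in non-invasive cells and 45.1, 77.4, 41.3 and 43.2 CPM in serum-free spheroids. All 8 EGF-only libraries were above all 12 others. DSC3 had 0, 7.46, 10.2 and 25.4 CPM in invasive cells, 34.5, 40.0, 23.7 and 37.8 CPM with cetuximab, 28.0, 37.8, 16.9 and 38.3 CPM under the MEK inhibitor, 4.09, 14.7, 7.7 and 18.9 CPM in non-invasive cells and 24.5, 25.4, 25.9 and 27.1 CPM in serum-free spheroids. Its non-invasive libraries were all below its serum-free ones. Relative to serum-free spheroids DSC2 rose by 2.03 ± 0.24 in invasive cells (adjusted p = 1.4e-06) and by 1.45 ± 0.24 in non-invasive cells (adjusted p = 0.00017), which are folds of 4.07 and 2.73. DSC3 in non-invasive cells stood at -1.15 ± 0.48 relative to serum-free spheroids with an adjusted p of 0.125, and fell by that test without the shallow library (-1.14 ± 0.37). Without the 2 non-invasive libraries richest in MALAT1 it was -0.60 ± 0.56, not called.

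DSC2 was lower with both inhibitors than in non-invasive Kyse30 cells, at -1.28 ± 0.24 with cetuximab (adjusted p = 0.0015) and -0.88 ± 0.23 with the MEK inhibitor (adjusted p = 0.0268). The second call was lost when any 1 of the 4 MEK inhibitor libraries, or non-invasive replicate 1, 2 or 4, was left out, and without non-invasive replicates 1 and 3 together. DSC3 stood higher, at 1.55 ± 0.48 and 1.39 ± 0.48 (adjusted p = 0.0608 and 0.108), and both were called as higher without the shallow library (1.54 ± 0.37 and 1.38 ± 0.37). In these libraries the share of counts from mitochondrial transcripts was 8.22% to 19.3% and that of the nuclear RNA MALAT1 1.68% to 9.63% in the non-invasive group. DSC3 was lowest, at 4.09 and 7.70 CPM, in the 2 non-invasive libraries with the most MALAT1, replicates 1 and 3, and without these 2 libraries DSC3 stood at 1.00 ± 0.57 with cetuximab and 0.85 ± 0.56 with the MEK inhibitor against non-invasive cells, neither called. Invasive and non-invasive Kyse30 cells differed by 0.58 ± 0.23 for DSC2, with no overlap of the libraries, and by 0.09 ± 0.50 for DSC3, and neither was called (adjusted p = 0.28 and 0.973).

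In FaDu DSC2 and DSC3 both fell in invasive, cetuximab and non-invasive groups relative to serum-free spheroids. DSC2 had 40.7, 57.9, 64.5 and 54.8 CPM in invasive cells, 40.5, 31.8, 40.0 and 43.5 CPM with cetuximab, 89.9, 96.4, 109.5 and 108 CPM under the MEK inhibitor, 65.4, 87.8, 81.8 and 92.7 CPM in non-invasive cells and 121, 139, 125 and 132 CPM in serum-free spheroids. DSC3 had 25.9, 28.9, 29.3 and 26.6 CPM in invasive cells, 32.6, 20.2, 31.3 and 35.6 CPM with cetuximab, 96.2, 76.6, 65.7 and 61.0 CPM under the MEK inhibitor, 37.9, 43.1, 38.3 and 35.1 CPM in non-invasive cells and 126, 112, 117 and 117 CPM in serum-free spheroids. For both genes the 4 serum-free libraries were above each of the other 16. Relative to serum-free spheroids, DSC3 fell, with values of -2.10 ± 0.17 in invasive cells, -1.97 ± 0.16 with cetuximab and -1.61 ± 0.16 in non-invasive cells (adjusted p = 4.43e-11, 2.12e-10 and 4.73e-09). With the MEK inhibitor the fall was smaller, -0.66 ± 0.16 (adjusted p = 0.00319), and DSC3 was 0.95 ± 0.16 higher than in non-invasive cells (adjusted p = 5.05e-05). DSC2 fell, with values of -1.25 ± 0.15 in invasive cells, -1.73 ± 0.15 with cetuximab and -0.66 ± 0.14 in non-invasive cells (adjusted p = 5.41e-08, 4.19e-10 and 0.000384). With the MEK inhibitor it stood at -0.36 ± 0.14, not called (adjusted p = 0.0784).

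DSC2 was also lower in FaDu invasive than in non-invasive cells, at -0.59 ± 0.15 (adjusted p = 0.0221). That call was lost when invasive replicate 1 or 4, or non-invasive replicate 2, 3 or 4, was left out. With cetuximab it was lower than in non-invasive cells (-1.07 ± 0.15, adjusted p = 1.68e-05), while the MEK inhibitor value was 0.30 ± 0.14 with no call. DSC2 thus differed between the lines in its change in non-invasive cells against serum-free spheroids, by 2.12 ± 0.28 (Kyse30 minus FaDu, adjusted p = 5.37e-07). For MEK inhibitor spheroids against non-invasive cells its change differed by -1.17 ± 0.27 (adjusted p = 0.00686). With cetuximab the lines differed for DSC3, by 1.94 ± 0.48 (adjusted p = 0.0259). The DSC3 call was lost without FaDu non-invasive replicate 2, Kyse30 cetuximab replicate 4, or Kyse30 non-invasive replicate 1 or 3, or both of these. Over non-invasive cells against serum-free spheroids, 3 of 9 members differed between the lines in the positive direction and 0 in the negative, where 9.48% and 6.2% of all genes did. The counts were 1 and 0 with cetuximab against non-invasive cells (0.751% and 0.561% of all genes), 0 and 2 with the MEK inhibitor (2.27% and 2.83%) and 0 and 0 for invasive against non-invasive cells (0.142% and 0.0395%). In the last of these 4 had an unadjusted p under 0.05 by edgeR (CDH1, CDH3, DSC2 and JUP), and DESeq2 and limma-voom each called 2, CDH3 and DSC2. DSC2 stood at 1.15 ± 0.28 (adjusted p = 0.0659) and, like CDH3, was called without the shallow library (1.16 ± 0.26).

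The ratio of DSC2 to DSC3 counts within a library, again chosen after the values were seen and given with no test, set EGF-only Kyse30 libraries apart. It was 24.9, 16.7 and 11.0 in the 3 invasive Kyse30 libraries with DSC3 counts, 1.53, 1.63, 1.97 and 1.8 with cetuximab, 3.13, 2.01, 4.51 and 1.76 with the MEK inhibitor, 34.8, 10.7, 14.2 and 8.2 in non-invasive cells and 1.84, 3.05, 1.59 and 1.59 in serum-free spheroids. In each of these 7 EGF-only libraries DSC2 counts exceeded DSC3 counts more than in any of the 12 others. In FaDu the medians were 2.03 in invasive cells, 1.26 with cetuximab, 1.46 with the MEK inhibitor, 2.09 in non-invasive cells and 1.10 in serum-free spheroids.

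**Figure D3:**
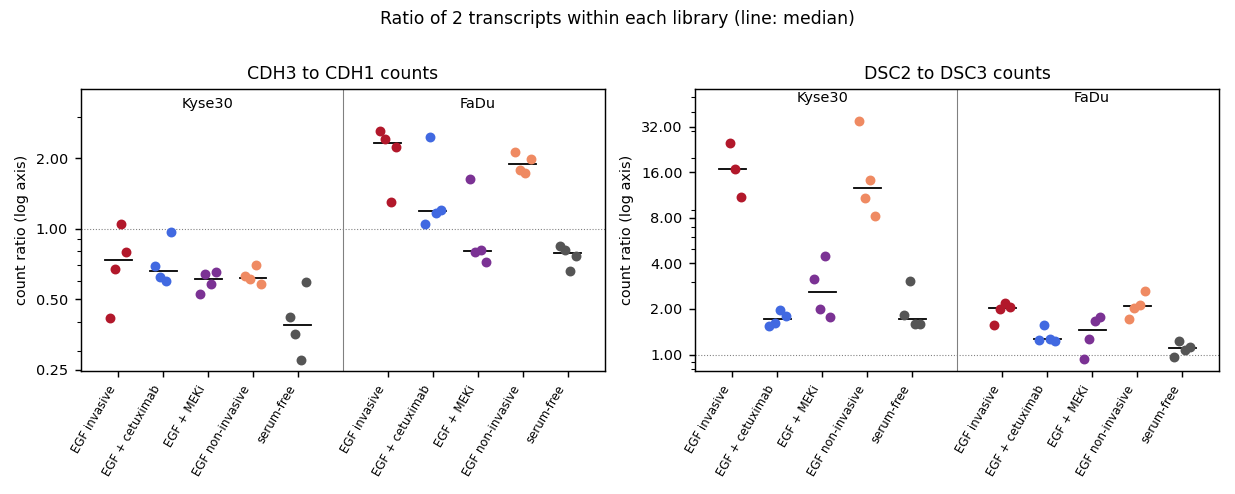
Count ratios within each library on log axes, CDH3 to CDH1 on the left and DSC2 to DSC3 on the right, with Kyse30 before FaDu in each panel. Points are libraries and lines are medians. The median DSC2 to DSC3 ratio is 16.7 in Kyse30 invasive cells and 1.71 in Kyse30 serum-free spheroids.

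DSG2 counts exceeded DSG3 counts in every library. DSG3, the desmoglein targeted in pemphigus vulgaris, had 0, 27.7, 27.3 and 50.8 CPM in Kyse30 invasive cells, 1.55, 8.04, 2.06 and 5.76 CPM with cetuximab, 5.96, 16.9, 5.45 and 9.71 CPM under the MEK inhibitor, 26.1, 18.2, 21.6 and 20.1 CPM in non-invasive cells and 6.23, 1.61, 18.5 and 1.69 CPM in serum-free spheroids. One serum-free library, replicate 3, reached the level of the non-invasive cells. DSG3 rose in invasive cells over serum-free spheroids (2.03 ± 0.69, adjusted p = 0.0323), a call lost without invasive replicate 3 or 4 or serum-free replicate 1, 2 or 4, or without non-invasive replicates 1 and 3 together (2.02 ± 0.75). In non-invasive cells it stood at 1.62 ± 0.69 and with cetuximab against non-invasive cells at -2.29 ± 0.69, and these were called when the shallow library was left out (1.62 ± 0.59 and -2.29 ± 0.59). In FaDu DSG3 had 3.83, 3.03, 10.1 and 5.98 CPM in invasive cells, 9.83, 5.36, 2.61 and 2.92 CPM with cetuximab, 34.9, 21.0, 13.8 and 14.3 CPM under the MEK inhibitor, 11.7, 14.0, 13.4 and 7.74 CPM in non-invasive cells and 18.8, 19.5, 20.1 and 15.9 CPM in serum-free spheroids. All 4 serum-free libraries were above all 12 from invasive, cetuximab and non-invasive groups. It fell in FaDu invasive cells (-1.69 ± 0.39, adjusted p = 0.000569) and with cetuximab (-1.86 ± 0.39, adjusted p = 0.000331) relative to serum-free spheroids. The change of DSG3 in non-invasive cells against serum-free spheroids differed between the lines by 2.29 ± 0.79 (adjusted p = 0.0415). That call was lost when any 1 of the 8 FaDu libraries, or Kyse30 non-invasive replicate 1, 3 or 4 or serum-free replicate 1, 2 or 4, was left out, and without Kyse30 non-invasive replicates 1 and 3 together.

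DSG2, the widely expressed desmoglein, had libraries in FaDu that ran from 203 to 356 CPM. It was lower in FaDu cetuximab spheroids than in serum-free ones (-0.44 ± 0.12, adjusted p = 0.00312). It was also lower in FaDu invasive cells than in serum-free spheroids (-0.28 ± 0.12, adjusted p = 0.0398), a call lost without invasive replicate 1 or 4 or serum-free replicate 1, 3 or 4. In Kyse30 DSG2 had 251, 372, 377 and 502 CPM in invasive cells, 198, 201, 215 and 238 CPM with cetuximab, 355, 331, 401 and 270.1 CPM under the MEK inhibitor, 478, 453, 396 and 483 CPM in non-invasive cells and 271, 281, 385 and 317 CPM in serum-free spheroids. The 4 cetuximab libraries were below each of the other 16. DSG2 was lower with cetuximab than in non-invasive cells, at -1.09 ± 0.19 (adjusted p = 0.00101), a fold of 0.471, whereas the FaDu value was -0.34 ± 0.12 with an adjusted p of 0.0703. The difference between the lines was -0.70 ± 0.23 (adjusted p = 0.153), called without the shallow library (-0.68 ± 0.19). Relative to serum-free spheroids DSG2 in Kyse30 stood at 0.27 ± 0.19 in invasive cells, -0.56 ± 0.19 with cetuximab and 0.53 ± 0.19 in non-invasive cells, none called. Without the shallow library it was higher in invasive (0.41 ± 0.16) and non-invasive cells (0.53 ± 0.15) and lower with cetuximab (-0.56 ± 0.15), and the lines then differed in non-invasive cells (0.63 ± 0.19).

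Desmoplakin, which links the plaque to keratin filaments, changed in opposite directions in the 2 lines between EGF-only cells and serum-free spheroids. DSP had 636, 456, 492 and 672 CPM in Kyse30 invasive cells, 357, 346, 198 and 404 CPM with cetuximab, 345, 359, 288 and 358 CPM under the MEK inhibitor, 446, 498, 537 and 618 CPM in non-invasive cells and 204, 212, 227 and 237 CPM in serum-free spheroids. All EGF-only Kyse30 libraries were above all those with the inhibitors and all serum-free ones. In FaDu it had 980.3, 1497, 1143 and 1274 CPM in invasive cells, 994, 1212, 885 and 880.5 CPM with cetuximab, 2743, 1765, 1424 and 1557 CPM under the MEK inhibitor, 998, 1302, 1304 and 1279 CPM in non-invasive cells and 2166, 2199, 2150.5 and 2302 CPM in serum-free spheroids. The serum-free FaDu libraries lay above all those of invasive, cetuximab and non-invasive groups. DSP in non-invasive cells rose over serum-free spheroids in Kyse30 (1.25 ± 0.20, adjusted p = 0.000103) and fell below them in FaDu (-0.85 ± 0.16, adjusted p = 0.000107). The lines differed by 2.12 ± 0.26 (adjusted p = 1.62e-07). In invasive cells the changes were 1.36 ± 0.20 in Kyse30 and -0.85 ± 0.16 in FaDu (adjusted p = 2.03e-05 and 8.55e-05), and between invasive and non-invasive cells DSP was not called in either line (0.10 ± 0.20 and 0.00 ± 0.16).

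DSP was higher with the MEK inhibitor than in non-invasive cells in FaDu (0.62 ± 0.16, adjusted p = 0.00539). In Kyse30 the value was -0.64 ± 0.20 (adjusted p = 0.0652), called as lower without the shallow library (-0.64 ± 0.17). The lines differed in this change by -1.24 ± 0.26 (adjusted p = 0.0021). With cetuximab DSP was lower than in non-invasive cells in Kyse30 (-0.69 ± 0.20, adjusted p = 0.0409). That call was lost when cetuximab replicate 1, 2 or 3 or non-invasive replicate 2, 3 or 4 was left out. It was also lost without non-invasive replicates 1 and 3 together (-0.78 ± 0.23). In FaDu the cetuximab value against non-invasive cells was -0.30 ± 0.16, with no call. FaDu cetuximab spheroids were below serum-free ones (-1.15 ± 0.17, adjusted p = 2.77e-06). Relative to serum-free spheroids DSP in Kyse30 stood at 0.57 ± 0.20 with cetuximab and 0.62 ± 0.20 with the MEK inhibitor, and both were called as higher without the shallow library (0.57 ± 0.18 and 0.62 ± 0.18). DSP-AS1, an antisense RNA at the DSP locus, had at most 11.6 CPM in any library, and its reads and those of DSP cannot be told apart without the strand setting.

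JUP and PKP3 encode plakoglobin, an armadillo protein of both junction types, and plakophilin 3, a plaque protein of desmosomes. JUP lies at chr17:41754609-41786711 on the minus strand and PKP3 at chr11:392596-404908 on the plus strand. JUP had 459.5, 504, 414 and 521 CPM in Kyse30 invasive cells, 98.2, 224, 227 and 262 CPM with cetuximab, 323, 283, 235 and 256 CPM under the MEK inhibitor, 407, 446, 355 and 443 CPM in non-invasive cells and 297, 328, 389.8 and 397 CPM in serum-free spheroids. Cetuximab libraries were below all EGF-only and serum-free ones. JUP was lower with cetuximab than in non-invasive cells in both lines, at -1.02 ± 0.22 in Kyse30 and -0.76 ± 0.16 in FaDu (adjusted p = 0.00582 and 0.00272). Only DSC2 and JUP were called in both lines in that comparison with all libraries. In FaDu JUP had 196, 180.1, 258 and 209 CPM in invasive cells, 189, 94.8, 165 and 221 CPM with cetuximab, 196, 196, 168 and 179.7 CPM under the MEK inhibitor, 309, 287, 276 and 267 CPM in non-invasive cells and 235, 229.9, 218 and 208 CPM in serum-free spheroids. Non-invasive FaDu cells had more JUP than every other library of the line. Between invasive and non-invasive cells the change was -0.44 ± 0.16, not called (adjusted p = 0.164). Over serum-free spheroids the non-invasive value was 0.35 ± 0.16, also not called (adjusted p = 0.0719). JUP was lower with the MEK inhibitor than in non-invasive FaDu cells (-0.62 ± 0.16, adjusted p = 0.00473). In Kyse30 the value was -0.59 ± 0.22, called as lower without the shallow library (-0.59 ± 0.20).

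Against serum-free spheroids JUP was lower with cetuximab in Kyse30 (-0.80 ± 0.22, adjusted p = 0.0437) and in FaDu (-0.41 ± 0.16, adjusted p = 0.0452). The Kyse30 call was lost without cetuximab replicate 1, 2 or 3 or serum-free replicate 2, 3 or 4, or non-invasive replicates 1 and 3 together (-0.80 ± 0.22), and the FaDu call without cetuximab replicate 2 or 3 or any 1 of the serum-free replicates. PKP3 in FaDu had 159, 182, 134 and 176 CPM in invasive cells, 137, 259, 131 and 119 CPM with cetuximab, 141, 116, 107 and 97.6 CPM under the MEK inhibitor, 156, 167, 190.4 and 214 CPM in non-invasive cells and 100.1, 128, 109 and 112 CPM in serum-free spheroids. All EGF-only libraries were above the serum-free ones. PKP3 rose in non-invasive cells by 0.69 ± 0.19 over serum-free spheroids (adjusted p = 0.00301), and with the MEK inhibitor it was lower than in non-invasive cells (-0.66 ± 0.19, adjusted p = 0.0083). In FaDu invasive cells it rose by 0.53 ± 0.19 (adjusted p = 0.0166), a call lost without serum-free replicate 1. With cetuximab it was higher than in serum-free spheroids by 0.52 ± 0.19 (adjusted p = 0.0265), lost without cetuximab replicate 2, the highest of its group, or serum-free replicate 1, 3 or 4. In Kyse30 PKP3 ran from 91.6 to 266 CPM over all libraries, with the shallow library at the top. It rose in invasive cells over serum-free spheroids (0.63 ± 0.22, adjusted p = 0.0326). That call was lost without invasive replicate 4 or serum-free replicate 1, 2 or 3. Without the shallow library PKP3 was still called as higher, at 0.45 ± 0.18 (adjusted p = 0.0481).

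**Figure D4:**
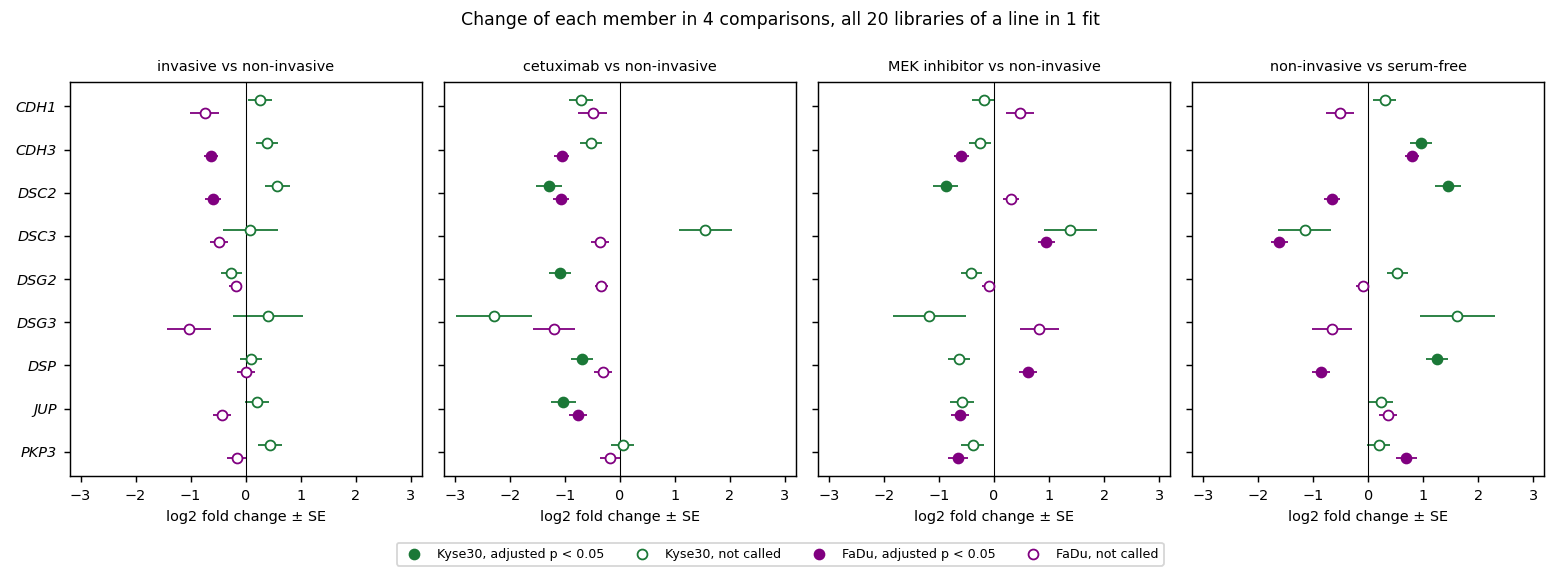
Log2 fold change ± SE of each member in 4 comparisons, the group named first over the second, Kyse30 in green and FaDu in purple. Filled points have an adjusted p under 0.05. DSC2 and DSP lie on opposite sides of 0 in the 2 lines for non-invasive cells against serum-free spheroids, at 1.45 and 1.25 in Kyse30 and at -0.66 and -0.85 in FaDu.

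Of 10 junction partner genes (catenins, nectins and linkers of adherens junctions) 10 were tested in Kyse30 and 9 in FaDu. In non-invasive cells against serum-free spheroids, 1 rose and 2 fell in Kyse30, and 2 rose and 2 fell in FaDu, with medians of 0.10 and -0.02 on the log2 scale. Of all genes, 8.1% rose and 4.76% fell there in Kyse30, and 25.3% rose and 24.7% fell in FaDu. CTNND1, which encodes p120-catenin and stabilises cadherins at the membrane, had 427 ± 40.5 CPM in non-invasive cells and 266 ± 24.2 CPM in serum-free spheroids of Kyse30, and 168 ± 9.06 and 255 ± 28.1 CPM in FaDu. It rose in Kyse30 (0.69 ± 0.16, adjusted p = 0.00494) and fell in FaDu (-0.60 ± 0.12, adjusted p = 0.000182), and the lines differed by 1.29 ± 0.20 (adjusted p = 8.82e-06). CTNNA1, the alpha-catenin gene, fell in Kyse30 (-0.79 ± 0.15), as did AJUBA (-1.50 ± 0.50). CTNNB1, the beta-catenin gene, and VCL, the vinculin gene, rose in FaDu by 0.46 ± 0.12 and 0.69 ± 0.13. NECTIN4, a nectin of epithelial adherens junctions, fell in FaDu non-invasive cells (-0.89 ± 0.29) and was lower still in invasive cells. It had 3.11, 8.08, 11.0 and 3.11 CPM in invasive cells and 17.9, 24.9, 25.4 and 23.7 CPM in non-invasive cells, a change of -1.90 ± 0.33 (adjusted p = 0.00109), and was the 1 partner gene of 9 called there. In that FaDu comparison 3% of all genes were called. In Kyse30 0 of 10 were called by edgeR between invasive and non-invasive cells (0.409% of all genes), and 0 had an unadjusted p under 0.05. With cetuximab against non-invasive cells 0 rose and 1 fell in each line, CTNND1 in Kyse30 (-0.65 ± 0.16) and CTNNB1 in FaDu (-0.45 ± 0.12). The shares of all genes that rose and fell there were 1.85% and 3.08% in Kyse30 and 3.64% and 4.93% in FaDu. Without the shallow library 0 rose and 2 fell in Kyse30 there (7.37% and 9.76% of all genes). CTNND1 was lower with the MEK inhibitor than in non-invasive cells in Kyse30 (-0.58 ± 0.16) and higher in FaDu (0.36 ± 0.12), and the lines differed by -0.93 ± 0.20.

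Of 9 other desmosome and envelope genes, 5 were tested. PKP2, the plakophilin 2 gene, had 94.1, 72.0, 81.6 and 84.4 CPM in FaDu invasive cells, 67.5, 56.4, 47.8 and 69.1 CPM with cetuximab, 16.9, 27.0, 25.4 and 29.4 CPM under the MEK inhibitor, 76.9, 93.4, 74.2 and 70.6 CPM in non-invasive cells and 19.2, 15.0, 18.2 and 22.7 CPM in serum-free spheroids. The MEK inhibitor and serum-free libraries were below all the others. PKP2 rose by 2.07 ± 0.18 in non-invasive cells over serum-free spheroids and was lower with the MEK inhibitor than in non-invasive cells, at -1.66 ± 0.17 (adjusted p = 3.79e-10 and 3.01e-08). With cetuximab the value was -0.39 ± 0.16, not called. PKP2 in Kyse30 was not called in non-invasive cells against serum-free spheroids (0.27 ± 0.43), and the lines differed by -1.78 ± 0.43 (adjusted p = 0.00302). EVPL and PPL, which encode the plakins envoplakin and periplakin, and PERP, a tetraspan protein gene of desmosomes, fell in FaDu non-invasive cells, with values of -0.98 ± 0.22, -0.57 ± 0.11 and -1.02 ± 0.17, and 0 of 5 were called by edgeR in Kyse30, where 1 had an unadjusted p under 0.05. Of all genes, 25.3% were higher and 24.7% lower in that comparison in FaDu, and 8.1% and 4.76% in Kyse30. Without the shallow Kyse30 library 0 of 5 were higher and 1 lower (15.9% and 12% of all genes). The median over the 5 genes with all libraries was -0.20 in Kyse30 and -0.57 in FaDu.

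CDH2, the N-cadherin gene, was the 1 mesenchymal cadherin tested of 3 listed. It had 21.1, 20.2, 7.03 and 14.4 CPM in FaDu invasive cells and 6.27, 9.78, 3.79 and 5.08 CPM in non-invasive cells, a rise of 1.33 ± 0.38 with an adjusted p of 0.0496. The third invasive replicate was within the range of non-invasive cells. In Kyse30 CDH2 had at most 9.71 CPM in any library, and was called as lower in non-invasive cells (2 counts over 4 libraries) than in serum-free spheroids (33 counts). Of 12 transcription factors known from epithelial or mesenchymal programmes, 9 were tested, and in non-invasive cells against serum-free spheroids 1 rose and 1 fell in Kyse30 and 2 rose and 2 fell in FaDu, with medians of 0.20 and -0.25. The shares of all genes that rose and fell there were 8.1% and 4.76% in Kyse30 and 25.3% and 24.7% in FaDu. ELF3, an epithelial ETS-family factor, had 34.2, 36.7, 30.2 and 28.5 CPM in FaDu invasive cells, 240.5, 159.7, 141 and 149 CPM with cetuximab, 541, 509, 275 and 329 CPM under the MEK inhibitor, 89.4, 110.2, 57.1 and 65.3 CPM in non-invasive cells and 638, 581, 618 and 617 CPM in serum-free spheroids. No 2 of the 5 groups overlapped, and invasive cells were lowest. ELF3 in non-invasive cells fell below serum-free spheroids in both lines, at -1.46 ± 0.24 in Kyse30 and -2.93 ± 0.22 in FaDu (adjusted p = 0.000135 and 2.03e-10). In FaDu it was lower in invasive than in non-invasive cells (-1.31 ± 0.22, adjusted p = 0.00127). OVOL1, an epithelial zinc finger factor, and TWIST2 rose in FaDu non-invasive cells over serum-free spheroids, at 2.67 ± 0.59 and 1.85 ± 0.26, and TWIST1 fell (-0.71 ± 0.27). ZEB1, a repressor of CDH1, had at most 11.2 CPM in any library. It was called as higher in Kyse30 invasive cells (47 counts over 4 libraries) and non-invasive cells (75 counts) than in serum-free spheroids (2 counts). Invasive replicates 2 and 3 held all 47 of the invasive counts. In FaDu it was called as lower with cetuximab (8 counts) and with the MEK inhibitor (9 counts) than in non-invasive cells (66 counts), and as lower with cetuximab than in serum-free spheroids (37 counts, 33 of them in replicate 2). SNAI2, a gene of the Snail family, was also called as higher in Kyse30 invasive cells than in serum-free spheroids.

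**Figure D5:**
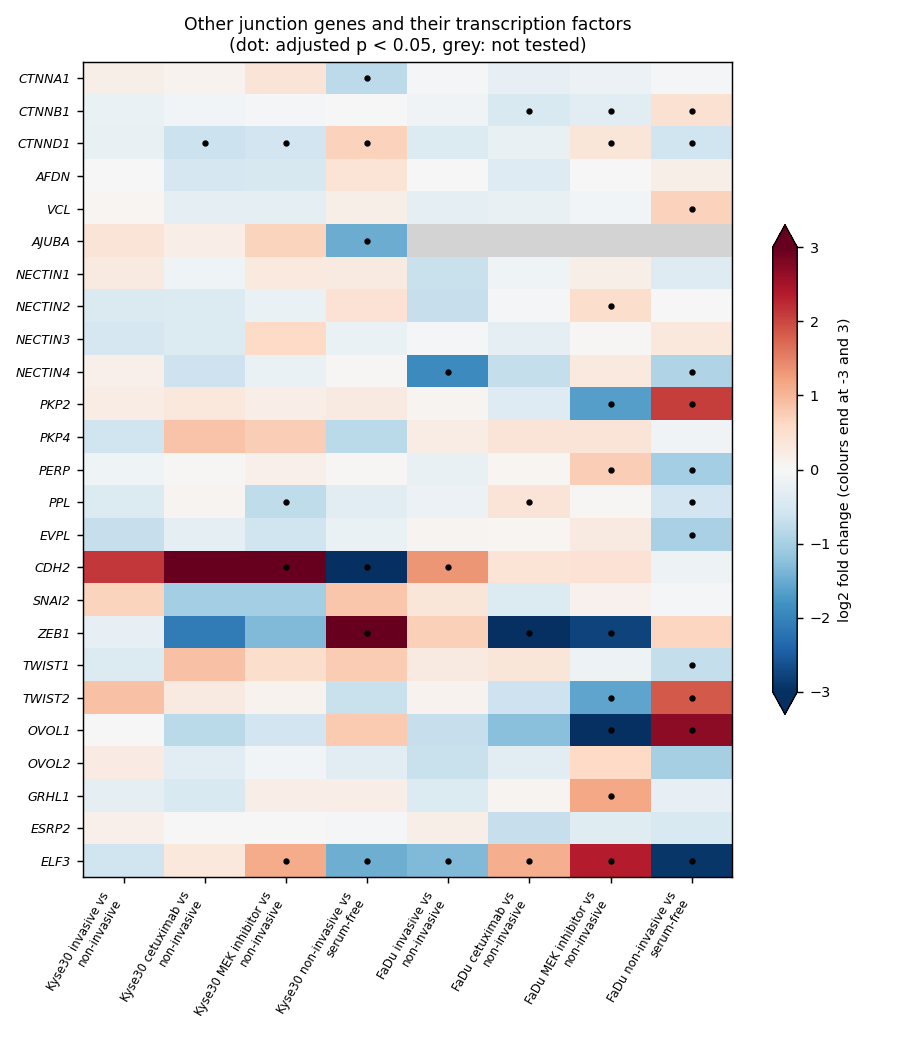
Log2 fold changes of the listed junction, desmosome and transcription factor genes in 4 comparisons for Kyse30 and then FaDu, the group named first over the second. Dots mark an adjusted p under 0.05 and grey cells were not tested. The NECTIN4 cell for FaDu invasive against non-invasive cells stands at -1.90 and the CTNND1 cells for non-invasive cells against serum-free spheroids at 0.69 in Kyse30 and -0.60 in FaDu.

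Likeness between genes was measured as the root mean square difference over 8 log2 fold changes, those of the 4 EGF-treated groups against serum-free spheroids in each line, among 11459 genes tested in both lines. The gene nearest to DSC2 was DSP (0.387), followed by DSG3 (0.391). Nearest to DSP was TPM1 (0.238), a tropomyosin gene, and nearest to DSC3 was LINC00339 (0.231). CDH1 was closest to FNBP1L (0.187), CDH3 to MACO1 (0.171), JUP to ACTN4 (0.189), an alpha-actinin gene, DSG2 to FNDC3A (0.118) and PKP3 to EIF3G (0.130). DSG3 was closest to DSC2. Among pairs of members DSG2 and JUP were nearest (0.288). Members with small changes have small distances to many genes, and these values are a description over fold changes that share the serum-free libraries.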

How the data were processed

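RNA of 40 libraries was deposited as raw counts per gene, in 1 table of 12655 genes, and was prepared with a 3′ tag protocol per the labels. The authors' processing notes name STAR and HTSeq and the builds GRCh38 and hg38. Their versions, the annotation used and whether counting was stranded: not given in the sources used here. No molecular identifiers are named, so duplicate reads are not accounted for. Levels (CPM) were the deposited counts relative to the library total, scaled by TMM factors. The 20 libraries of a line entered 1 fit by edgeR 4.0.16 in R 4.3.3 (filterByExpr by group, TMM, robust quasi-likelihood test), with an adjusted p under 0.05 over all genes tested as the threshold. Differences between the lines came from 1 fit of all 40 libraries. DESeq2 1.42.0 and limma 3.58.1 (voom) were alternatives, as were other scalings, filters and libraries left out. The fits were tested on simulated data.

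The members and gene lists were chosen with earlier results of these data known. All members were named. Listed junction and transcription factor genes were named where called in non-invasive against serum-free or invasive against non-invasive groups, and only in part for other comparisons. A gene of the transcription factor list is not reported here. The lines are human carcinoma cell lines. Replicates of a group differed by more than sampling noise, with chi-square per degree of freedom of at least 2.39. Coordinates and promoter sequences are from RefSeq on GRCh38.p14 and match the labelled build by name only. Of the measured members 6 had a promoter entry.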

Additional observations from a re-analysis of the deposited data

Results flagged for a closer look

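For each member in each group the 4 libraries were tested for a library far from the other 3. Of these 90 sets, which reuse the same libraries, 5 had one, and chance gives about 1 in 20. DSP had 998 CPM in FaDu non-invasive replicate 1, below the other 3. DSG2 had 203 CPM in FaDu cetuximab replicate 3, below the other 3, and PKP3 had 259 CPM in FaDu cetuximab replicate 2, above the other 3. CDH3 had 163 CPM in FaDu serum-free replicate 1 and DSC2 had 77.4 CPM in Kyse30 serum-free replicate 2, each above the other 3.

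By the test of the difference itself, in edgeR's quasi-likelihood fit of all libraries, 6 changes differed between the lines (Kyse30 minus FaDu, log2). For non-invasive cells against serum-free spheroids the differences were 2.12 for DSC2, 2.29 for DSG3 and 2.12 for DSP. For cetuximab against non-invasive cells the difference was 1.94 for DSC3. For the MEK inhibitor against non-invasive cells the differences were -1.17 for DSC2 and -1.24 for DSP.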

How the results depend on the processing

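Only the members were followed through all alternatives, and the other listed genes at most through the fits without the shallow library. No called member result changed direction under any alternative run, and 44 of 58 called member results stayed called under all of them. For the other 14, the single libraries whose removal ended the call are named beside the result. Other settings ended calls too. In Kyse30, limma-voom, the block and a fit of only the groups compared ended that of DSG3 in invasive cells against serum-free spheroids, and RLE scaling, DESeq2, limma-voom and a fit of only those groups that of PKP3. RLE scaling, TMM without mitochondrial transcripts and MALAT1 and a fit of only the groups compared ended that of DSP with cetuximab against non-invasive cells. The same TMM ended JUP with cetuximab and, as did the block and no filter, CDH3 with the MEK inhibitor against serum-free spheroids, and RLE scaling DSC2 with the MEK inhibitor against non-invasive cells. In FaDu cetuximab against serum-free spheroids, a fit of only these groups ended JUP and PKP3, and the stricter filter and limma-voom PKP3. The block ended both line differences of DSG3. Leaving out the 2 Kyse30 non-invasive libraries richest in MALAT1 ended 7 calls: CDH3 and DSC2 with the MEK inhibitor, against serum-free spheroids and non-invasive cells in that order, DSG3 in invasive cells and JUP with cetuximab against serum-free spheroids, DSP with cetuximab against non-invasive cells, and the line differences of DSC3 with cetuximab and of DSG3 in non-invasive cells. Leaving out FaDu cetuximab replicate 2 and MEK inhibitor replicate 1 ended 3: DSG2 in invasive cells, and JUP and PKP3 with cetuximab, against serum-free spheroids. Counts of members called moved as follows, and the cause was not tested. With a filter at a mean of 10 CPM, FaDu cetuximab against non-invasive cells had 5 against 3. DESeq2 gave 5 there, 2 against 1 for the FaDu MEK inhibitor against serum-free spheroids, 2 against 1 for Kyse30 MEK inhibitor against non-invasive cells and for cetuximab and the MEK inhibitor against serum-free spheroids, and 2 for the line differences in invasive cells (against 0) and cetuximab (against 1). Limma-voom gave 5 for FaDu cetuximab, 3 against 5 for Kyse30 invasive cells against serum-free spheroids, 2 for the Kyse30 MEK inhibitor against non-invasive cells and 2 for the line difference in invasive cells. Fits of only the groups compared gave, in FaDu, 4 for invasive against non-invasive cells, all lower (CDH1, CDH3, DSC2 and JUP). In that line they gave 8 for non-invasive cells and 2 for the MEK inhibitor against serum-free spheroids. In Kyse30 they gave 5 for non-invasive and 3 for invasive cells against serum-free spheroids, 5 for the MEK inhibitor against non-invasive cells, and 2 each for cetuximab and the MEK inhibitor against serum-free spheroids. Their line differences were 5 for non-invasive cells against serum-free spheroids and 2 for cetuximab.

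Leaving out FaDu cetuximab replicate 2 and MEK inhibitor replicate 1, chosen after seeing the data, gave 5 for FaDu invasive and 7 for cetuximab against non-invasive cells, and 2 for the MEK inhibitor against serum-free spheroids. RLE scaling gave 0 for the Kyse30 MEK inhibitor against non-invasive cells and 2 for the line difference in invasive cells. TMM without mitochondrial transcripts and MALAT1 gave 0 for both Kyse30 inhibitors against serum-free spheroids, and no filter gave 0 for the MEK inhibitor there. Without the shallow Kyse30 library the counts against serum-free spheroids were 6 for non-invasive cells, 3 for cetuximab and 2 for the MEK inhibitor. Against non-invasive cells they were 8 for cetuximab and 4 for the MEK inhibitor. The line differences were 2 for invasive cells, 5 for non-invasive cells against serum-free spheroids and 2 for cetuximab. Of all genes, 0.585%, 24.7% and 3.73% then differed between the lines in that order, beside 0.182%, 15.7% and 1.31% with all libraries. Without the 2 Kyse30 non-invasive libraries richest in MALAT1, the MEK inhibitor against non-invasive cells, both inhibitors against serum-free spheroids and the line difference with cetuximab each had 0.

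Leaving out 1 replicate at a time gave, in FaDu, 1 to 2 for invasive against non-invasive cells, 5 to 5 for non-invasive and 5 to 7 for invasive cells against serum-free spheroids, 3 to 5 for cetuximab and 5 to 5 for the MEK inhibitor against non-invasive cells, and 6 to 9 and 1 to 2 for these against serum-free spheroids. In Kyse30, in the same order, the ranges were 0 to 0, 3 to 4, 3 to 6, 3 to 5, 0 to 1, 0 to 1 and 0 to 0. The line differences ranged over 0 to 2 for invasive cells, 2 to 4 for non-invasive cells against serum-free spheroids, 0 to 1 for cetuximab and 2 to 2 for the MEK inhibitor, and 5 to 6 for serum-free spheroids. The replicate numbers were not shown to pair the samples: same-numbered libraries had median correlations of -0.0141 in FaDu and 0.00225 in Kyse30, with 8 and 6 of 40 pairs over 0.1. With the replicate number as a block the Kyse30 MEK inhibitor against serum-free spheroids had 0 and the line difference in invasive cells 1. DSG3 and DSC3 in Kyse30, at under 60 CPM, and the 463124 counts of the shallow library limit the precision of the values that rest on them.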
